A study of Mus musculus with 9 samples.

Results

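Gene expression was measured for 41 genes that copy the genome: those that load and start the replicative helicase, synthesise and join the new strands, supply deoxynucleotides, rebuild chromatin behind the fork and protect it by recombination. They were chosen by name from their known roles, with earlier results of these data known. Among the 18193 genes named on the array 40 of them were found, the exception being Chaf1a, which is not analysed here. The 40 genes were read in endothelial cells (ECs) of the mouse lung, in 3 groups with 3 arrays each. The first group came from lungs with metastases of mice given DC101, a rat antibody against the VEGF receptor VEGFR2, at 40 mg/kg by intraperitoneal injection. The second came from lungs with metastases of mice given rat IgG, and the third from healthy mice of matching age, also given rat IgG. Metastases were seeded through the tail vein with MDA-MB-231-LM2 cells, a human breast cancer line selected for growth in the lung, when the mice were 6 to 8 weeks old. DC101 or IgG was given on day 21 and day 24 after injection, and lungs were taken on day 25.

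All mice were NSG, an immunodeficient strain that lacks mature lymphocytes and keeps macrophages and neutrophils, so the metastases grew without adaptive immunity. CD31-positive ECs were sorted from whole lungs against a set of negative markers, and vessels inside and outside metastatic nodules were pooled in each sample. The labels do not say that each biological replicate is a separate mouse, so a p-value here covers no more than the spread among these samples, and the number of arrays limits the precision. Values are normalized log2 levels, on which a difference of 1 is a doubling. A gene was called when limma's moderated test gave a Benjamini-Hochberg adjusted p under 0.05 over all 18193 genes.

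Before a cell divides it marks the starting points of replication by loading rings of MCM2 to MCM7 onto DNA, and in S phase these rings are switched on as helicases that polymerases follow. Most of these genes are transcribed in a burst as the cell leaves G1, many under the E2F transcription factors, and are low in resting cells. Lung ECs of the adult mouse divide rarely, and VEGF signalling through VEGFR2 is a major signal for their division.

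Depth on an array is its signal, and the 9 arrays had been brought to one distribution. Arrays correlated with r of 0.983 to 0.987 in the DC101 group, and the other groups lay between 0.988 and 0.991. The endothelial genes Pecam1 and Cdh5 lay between 13.99 and 14.21 in all 9 arrays. The summed linear level of the 10 pan-endothelial markers was 128352 to 138630 with DC101, 132870 to 134901 in metastatic IgG lungs and 140011 to 142455 in healthy lungs. The sums of both metastatic groups thus lay below those of healthy lungs. Of the 10 markers 1 was called higher in metastatic IgG over healthy lungs (0.53, limma adjusted p = 0.0341) and 0 lower. In 5 of them every metastatic IgG array lay below every healthy array. Markers of other cells moved with metastasis. Of 10 lung epithelial markers 6 were called lower, with sums of 7162 to 8822 in metastatic IgG lungs and 14937 to 22202 in healthy lungs. Of 7 erythroid and megakaryocyte markers 3 were lower, of 12 macrophage and monocyte markers 4 were higher (C1qa, C1qb, C1qc and Mrc1), and of 10 fibroblast and mural markers 2 were higher and 2 lower. The sums of the macrophage list overlapped, at 9415 to 10980 in metastatic IgG lungs and 10199 to 11330 in healthy lungs, and Ptprc, the pan-leukocyte marker CD45, averaged 8.33 in metastatic IgG lungs and 9.01 in healthy lungs. Neutrophil sums were higher without overlap, at 1952 to 2504 in metastatic IgG lungs and 1440 to 1828 in healthy lungs. All 7 neutrophil markers changed upward (median 0.37), and none was called. Lymphocyte sums were lower, at 930 to 952 against 959 to 1102, also with no marker called. The erythroid and megakaryocyte sums were 2245 to 2640 in metastatic IgG lungs and 4448 to 4880 in healthy lungs, and the fibroblast and mural sums overlapped, at 13670 to 21394 in metastatic IgG lungs and 10896 to 14544 in healthy lungs. The 3-prime minus 5-prime difference of Gapdh, a measure of RNA quality, was 0.354 to 0.598 with DC101, 0.468 to 0.568 in metastatic IgG lungs and 0.692 to 0.766 in healthy lungs. The same difference for Actb overlapped between all groups, at 0.004 to 0.138 with DC101, 0.013 to 0.091 in metastatic IgG lungs and -0.111 to 0.089 in healthy lungs. With DC101 the epithelial sums were 7377 to 18930, overlapping those of both other groups. The 6 mesothelial markers summed to 1280 to 3211 with DC101 and 1131 to 1771 in metastatic IgG lungs. In DC101 over metastatic IgG lungs the median change was 0.48 for epithelial and 0.43 for mesothelial markers. It lay between -0.16 and 0.19 for the other marker lists, and no marker was called. The part of these differences in the results below was not tested.

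The first comparison asks how replication genes differed between ECs of metastatic and healthy lungs without DC101. The genes were higher in metastatic lungs: 24 of the 40 were called higher and 0 lower (1 lower at an unadjusted p under 0.05), against 3.93% of all genes called higher. The median change of the 40 was 0.99, against -0.02 over all genes, and single changes ran between -0.63 for Cdc45 and 3.13 for Rrm2. In 35 of the 40 every metastatic IgG array lay above every healthy array, which held for 13.0% of all genes. Since ECs were measured in bulk, more cycling cells and more RNA per cycling cell cannot be told apart.

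**Figure D1:**
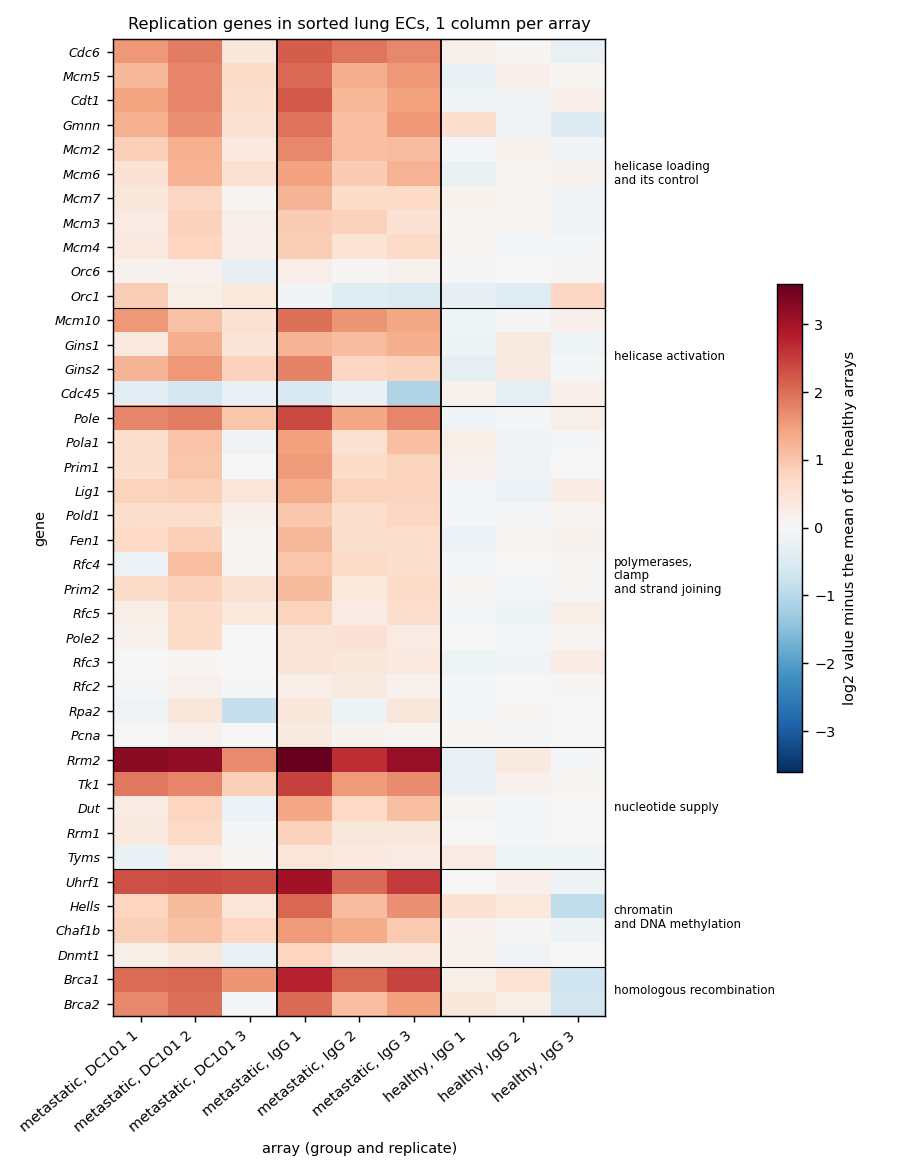
Each cell is the log2 value of 1 gene (rows, grouped by role) in 1 array (columns: DC101, metastatic IgG, healthy IgG) minus the mean of the healthy arrays. Rrm2, Uhrf1 and Brca1 are the darkest rows in the metastatic columns, while Pcna, Orc6 and Rfc2 stay close to 0.

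The helicase subunits MCM2 to MCM7 moved together, and all 6 were called higher, by 0.69 for Mcm4 up to 1.64 for Mcm5. Mcm5 had 11.71, 12.28 and 11.18 in DC101 arrays, 12.56, 11.84 and 12.09 in metastatic IgG arrays and 10.27, 10.70 and 10.61 in healthy arrays. Both metastatic groups lay wholly above the healthy group and overlapped each other. The change in metastatic IgG over healthy lungs was 1.64 ± 0.20 (SE, n = 3 arrays each, limma adjusted p = 0.00584), a 3.11-fold higher level. Mcm2 followed at 1.30, Mcm6 at 1.21, Mcm7 at 0.87 and Mcm3 at 0.75. In each of the 6 genes the 3 metastatic IgG arrays were above the 3 healthy arrays. Mcm2, Mcm5 and Mcm6 were called whichever array was left out. Mcm3 lost its call without metastatic IgG array 1 or 2 or healthy array 1 or 3, and Mcm4 and Mcm7 without metastatic IgG array 3 or any healthy array, with changes that stayed between 0.60 and 0.97 and adjusted p of at most 0.0787.

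The factors that load the ring were also higher in metastatic IgG lungs. CDC6 is the ATPase that joins the origin recognition complex to receive the MCM ring. Cdc6 had 8.26, 8.55 and 7.13 in DC101 arrays, 8.90, 8.64 and 8.45 in metastatic IgG arrays and 6.89, 6.79 and 6.44 in healthy arrays. The metastatic IgG arrays were tightly grouped, and the third DC101 array lay nearest the healthy arrays. Metastatic IgG over healthy lungs gave a change of 1.96 ± 0.16 (SE), 3.88-fold, with a limma adjusted p of 0.00141. Cdt1, the factor that brings the ring to the origin, changed by 1.63 ± 0.25 (adjusted p = 0.0136), and Gmnn, which encodes geminin, the inhibitor of CDT1 present after S phase begins, by 1.54 ± 0.32 (adjusted p = 0.0355). Cdt1 had 11.03, 11.38 and 10.19 in DC101 arrays, 11.84, 10.82 and 11.07 in metastatic IgG arrays and 9.53, 9.53 and 9.79 in healthy arrays, so that all metastatic arrays were above the healthy ones. Cdt1 lost its call without healthy array 1, at 1.58 and an adjusted p of 0.0584. The other probe sets of Cdt1 changed by 1.20 and 0.10 and were not called in a fit over all named probe sets. Gmnn lost its call without metastatic IgG array 1 or 3 or healthy array 2 or 3, with changes of 1.31 to 1.53.

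The origin recognition complex sits on origins throughout much of the cycle, and its subunits Orc1 and Orc6, which are among the 40 genes, were not called. The other subunits measured were not called either, with changes of 0.04 for Orc2, 0.07 for Orc3, -0.06 for Orc4 and -0.34 for Orc5, whose metastatic IgG arrays were all below the healthy ones (adjusted p = 0.133). Orc6 had 10.01, 10.05 and 9.59 in DC101 arrays, 10.14, 9.92 and 10.04 in metastatic IgG arrays and 9.86, 9.87 and 9.94 in healthy arrays, so that all 3 groups overlapped. Its change in metastatic IgG over healthy lungs was 0.14, with a 95% interval of -0.08 to 0.36. For Orc1 the answer depended on the probe set. The brighter probe set 1443172_at changed by -0.34 (interval -1.06 to 0.39), and the other, 1422663_at, by 1.18 ± 0.31 (SE), with an adjusted p of 0.087 in a limma fit over all named probe sets. The probe sets disagreed within the healthy group too: the third healthy array was the highest of its group with the brighter probe set, at 8.45, and the lowest with the other, at 6.58.

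Of the genes that turn the loaded ring into a moving helicase, Mcm10 and Gins1 were called higher. MCM10 is needed for the helicases to separate and unwind. Mcm10 had 8.85, 8.34 and 7.83 in DC101 arrays, 9.27, 8.86 and 8.68 in metastatic IgG arrays and 7.12, 7.24 and 7.47 in healthy arrays. The DC101 arrays spread over the gap between the other groups. Metastatic IgG over healthy lungs gave a change of 1.66 ± 0.17 (SE, adjusted p = 0.00319). The other probe sets of Mcm10 gave 1.07 and 0.49 and were not called in the fit over all named probe sets. Gins1 and Gins2 encode subunits of GINS, the complex that bridges the ring and the leading strand polymerase. Gins1 changed by 1.22 ± 0.16 (adjusted p = 0.00637). Gins2 changed by 1.12 ± 0.30 and missed the threshold (adjusted p = 0.0766), although its arrays did not overlap. Cdc45, the other partner of the ring, had a change of -0.63 (interval -1.18 to -0.08, adjusted p = 0.177) on the probe set used. Its second probe set, 1416575_at, gave 0.44 ± 0.14, in the other direction and also not called (adjusted p = 0.145 over all named probe sets).

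Among the 14 genes for polymerases, their clamp and strand joining, 6 were called higher, and all 14 changes were above 0, with a median of 0.74. Pole, the catalytic subunit of the leading strand polymerase epsilon, had 9.09, 9.15 and 8.32 in DC101 arrays, 9.70, 8.70 and 9.07 in metastatic IgG arrays and 7.16, 7.25 and 7.54 in healthy arrays. Both metastatic groups lay above every healthy array. Its change in metastatic IgG over healthy lungs was 1.84 ± 0.25 (SE), 3.57-fold, with an adjusted p of 0.00816. Pole2, a smaller subunit of the same enzyme, changed by 0.42 ± 0.10 and was not called (adjusted p = 0.0552). Polymerase alpha and its primase lay the first stretch of each new strand. The polymerase subunit Pola1 changed by 1.04 and the primase subunit Prim1 by 0.99, both called, and the primase subunit Prim2 by 0.73 (adjusted p = 0.0681). In the limma fit over all named probe sets, the other probe sets of Prim2 changed by 0.51, which was called (adjusted p = 0.0411), and 0.24, which was not. Pold1, of the lagging strand polymerase delta, changed by 0.79 (adjusted p = 0.0113). The other probe set of Pold1 changed by 0.32 and was not called.

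Pcna, the sliding clamp that holds polymerases on DNA, hardly moved: it had 12.90, 13.05 and 12.88 in DC101 arrays, 13.22, 13.01 and 13.00 in metastatic IgG arrays and 12.96, 12.85 and 12.87 in healthy arrays. Every metastatic IgG array was above every healthy one, yet the change was 0.19, with an interval of -0.05 to 0.42. Pcna had a single probe set, which lay in the upper part of the scale of the table, whose highest value was 14.84. Of the clamp loader RFC, Rfc4 was called (0.75, adjusted p = 0.017). Rfc2, Rfc3 and Rfc5 changed by 0.23, 0.40 and 0.58 and were not, with adjusted p of 0.0934 to 0.194. Rpa2, of the complex that coats single strands, changed by 0.22 (interval -0.18 to 0.62). Lig1, the ligase that seals the lagging strand, changed by 0.98 (adjusted p = 0.027), and Fen1, the nuclease that trims it, by 0.78 (adjusted p = 0.0505).

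Several calls in this group were lost in fits on fewer arrays. Pole was called whichever array was left out. Pola1, Prim1 and Lig1 were each called in 1 of the 6 fits that leave out an array, Rfc4 in 4 and Pold1 in 5. Pola1 kept its call only without metastatic IgG array 2, Prim1 only without metastatic IgG array 1 and Lig1 only without healthy array 3. Rfc4 lost its call without healthy array 1 or 2 and Pold1 without healthy array 1, at 0.75 and an adjusted p of 0.0516. The changes of these 5 genes stayed between 0.63 and 1.29.

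Nucleotide supply held the gene with the largest change of the 40. Ribonucleotide reductase makes deoxynucleotides, and its small subunit, encoded by Rrm2, is made in S phase. Rrm2 had 11.74, 11.68 and 10.20 in DC101 arrays, 12.10, 11.16 and 11.63 in metastatic IgG arrays and 8.23, 8.83 and 8.43 in healthy arrays. The lowest metastatic array, the third with DC101, was still above the highest healthy array. The change in metastatic IgG over healthy lungs was 3.13 ± 0.26 (SE), 8.77-fold, with an adjusted p of 0.00137. The other probe sets of Rrm2 gave 3.21 and 2.48, both called in the fit over all named probe sets. The large subunit Rrm1 had 10.98, 11.37 and 10.57 in DC101 arrays, 11.48, 11.04 and 11.06 in metastatic IgG arrays and 10.66, 10.61 and 10.65 in healthy arrays, a change of 0.55 that was not called (adjusted p = 0.0588).

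Tk1 encodes the thymidine kinase that salvages thymidine in dividing cells. Tk1 had 10.85, 10.73 and 9.83 in DC101 arrays, 11.43, 10.50 and 10.67 in metastatic IgG arrays and 8.73, 9.11 and 9.03 in healthy arrays. Both metastatic groups were above the healthy group. Its change in metastatic IgG over healthy lungs was 1.91 ± 0.25 (SE), 3.76-fold (adjusted p = 0.00679). Dut, the enzyme that removes dUTP from the pool, changed by 1.06 ± 0.17 (adjusted p = 0.0142), a call lost without metastatic IgG array 3 or healthy array 1 or 2, with adjusted p of at most 0.0564. Its other probe set changed by 0.47 and was not called. Tyms, which makes thymidylate from deoxyuridylate, changed by 0.37 (interval 0.03 to 0.70, adjusted p = 0.197), and its 4 probe sets lay between 0.27 and 0.58.

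Among the chromatin genes Uhrf1 stood out. UHRF1 recognises DNA methylated on 1 strand only, as left behind the fork, and recruits the methyltransferase DNMT1. Uhrf1 had 10.16, 10.20 and 10.15 in DC101 arrays, 10.86, 9.90 and 10.37 in metastatic IgG arrays and 7.84, 8.02 and 7.68 in healthy arrays. On this probe set the DC101 arrays lay inside the range of the metastatic IgG arrays, and both groups far above the healthy arrays. On the second, 1415810_at, the third DC101 array (9.22) was below every metastatic IgG array (9.72 to 10.41). The change in metastatic IgG over healthy lungs was 2.53 ± 0.23 (SE), 5.77-fold (adjusted p = 0.00205), and 2.18 on its second probe set. Dnmt1 had 11.23, 11.45 and 10.77 in DC101 arrays, 11.80, 11.34 and 11.37 in metastatic IgG arrays and 11.16, 10.90 and 11.02 in healthy arrays. Its change was 0.47, with an interval of 0.12 to 0.82, and was not called (adjusted p = 0.121).

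Chaf1b, a subunit of the chaperone CAF-1 that places histones on new DNA, changed by 1.27 ± 0.17 (adjusted p = 0.00819). It had 9.20, 9.41 and 9.11 in DC101 arrays, 9.89, 9.68 and 9.29 in metastatic IgG arrays and 8.49, 8.40 and 8.17 in healthy arrays, with both metastatic groups above the healthy one. Its dimmer probe set changed by -0.08. Hells, a remodeller needed to keep DNA methylated, had 8.21, 8.58 and 7.89 in DC101 arrays, 9.51, 8.57 and 9.09 in metastatic IgG arrays and 7.96, 7.82 and 6.57 in healthy arrays. Its healthy arrays spread more than those of the other 3 chromatin genes, and the change of 1.61 ± 0.40 missed the threshold (adjusted p = 0.0638). Its second probe set, 1417541_at, gave 1.53 ± 0.25 and was called (adjusted p = 0.0201 over all named probe sets).

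Both recombination genes were called. BRCA1 and BRCA2 repair breaks and shield stalled forks. Brca1 had 9.55, 9.60 and 9.12 in DC101 arrays, 10.30, 9.60 and 9.96 in metastatic IgG arrays and 7.74, 8.03 and 6.83 in healthy arrays. Both metastatic groups were above the healthy group, in which array 3 was low. The change in metastatic IgG over healthy lungs was 2.42 ± 0.32 (SE), 5.33-fold (adjusted p = 0.00789), and it was called whichever array was left out. Its 3 other probe sets, all dimmer, changed by 0.23, 0.20 and 0.08. Brca2 had 9.91, 10.18 and 8.13 in DC101 arrays, 10.22, 9.27 and 9.67 in metastatic IgG arrays and 8.6, 8.44 and 7.54 in healthy arrays. Its change was 1.53 ± 0.33 (adjusted p = 0.0421), and the call was lost whichever array was left out, with changes of 1.21 to 1.75 and adjusted p of 0.0519 to 0.113.

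**Figure D2:**
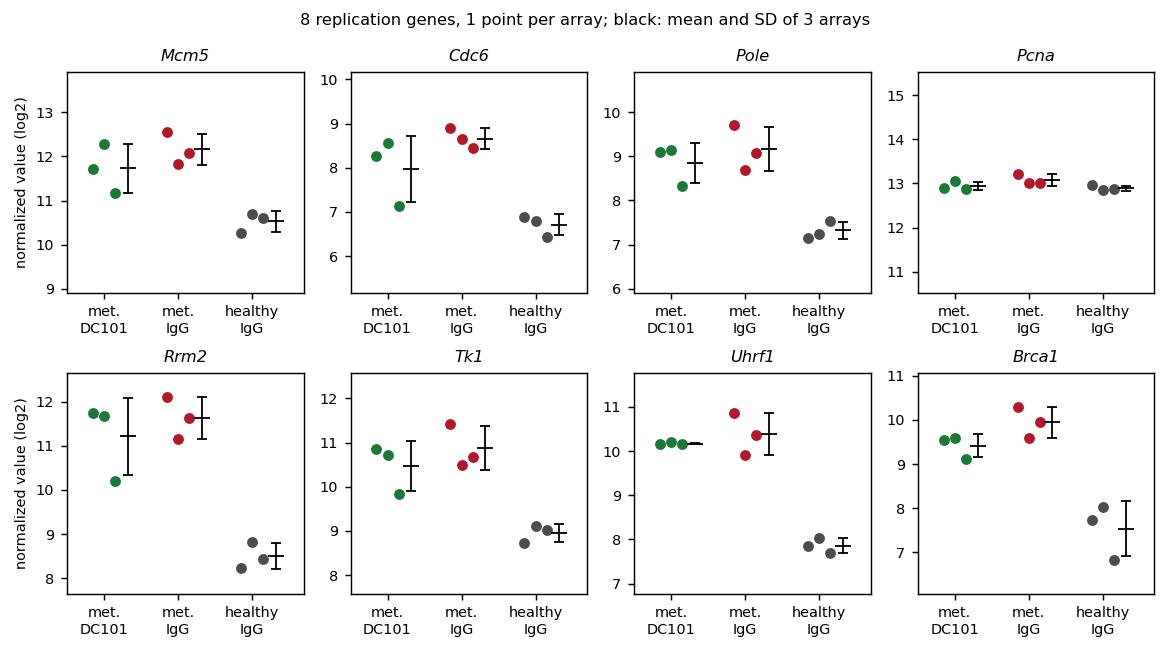
Normalized log2 value of 8 genes in each array (coloured points: DC101, metastatic IgG and healthy IgG), with the mean and SD of 3 arrays in black, all panels spanning the same height on the log2 scale. In all panels but Pcna the metastatic arrays lie above the healthy ones, and the DC101 and metastatic IgG points overlap.

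The sequence around the start sites of these genes was read from RefSeq windows of 250 bases before to 50 after the start (assembly GRCm38.p6). Windows were held for 33 of the 40 genes, and not for Mcm4, Gmnn, Gins1, Gins2, Rfc2, Pole and Prim2. The letters searched were those bound by E2F factors, TTTCCCGC, TTTCGCGC, TTTGCCGC and TTTGGCGC, on both strands. One of them stood in 16 of 33 genes (48.5%), against 3.81% of the 14452 array genes with a window and 2.26% of all 32851 windows. The same letters without the first T, a looser form that includes every longer match, stood in 24 of 33 (72.7%), against 16.0% of array genes and 9.57% of all windows. CCAAT, on both strands, stood in 19 of 33 (57.6%), against 42.0% and 37.4%. Of the 16 genes with the longer form 11 were called higher in metastatic IgG over healthy lungs, with a median change of 1.01, and of the 17 without it 9 were, with a median of 0.78. The genes were chosen by role, many of them known to be under E2F, so their share of matches does not depend on these arrays. A match is a description of letters, not a binding site, and binding was not measured.

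The 250 bases before the start are shown for the 4 genes with a window and the largest called change, read 5′ to 3′ on the strand of the gene, with the looser form in capitals. They show how differently placed the letters are even among the top genes. Rrm2 (chr12:24708004-24708253, plus strand) holds a match only at its far end, with its first base at position -235 from the start. Uhrf1 (chr17:56304063-56304312, plus strand, the later of its 2 starts) and Cdc6 (chr11:98907901-98908150, plus strand) hold a match in the upstream part that extends to the longer form. Brca1 (chr11:101551956-101552205, minus strand) has none before the start, and its match begins at base 22 after it. The windows of Tk1 and Mcm10, the next genes by change, held neither form.
Rrm2: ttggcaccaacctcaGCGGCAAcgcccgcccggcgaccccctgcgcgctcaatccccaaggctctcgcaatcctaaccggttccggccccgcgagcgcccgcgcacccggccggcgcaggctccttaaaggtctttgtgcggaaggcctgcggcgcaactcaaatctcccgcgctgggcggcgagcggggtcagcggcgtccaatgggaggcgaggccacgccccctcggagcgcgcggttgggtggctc
Uhrf1: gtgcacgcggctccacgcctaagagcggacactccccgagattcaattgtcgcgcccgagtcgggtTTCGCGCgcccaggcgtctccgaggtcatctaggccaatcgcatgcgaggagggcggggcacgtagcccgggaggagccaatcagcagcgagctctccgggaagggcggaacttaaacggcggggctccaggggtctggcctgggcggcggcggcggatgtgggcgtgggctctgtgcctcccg
Brca1: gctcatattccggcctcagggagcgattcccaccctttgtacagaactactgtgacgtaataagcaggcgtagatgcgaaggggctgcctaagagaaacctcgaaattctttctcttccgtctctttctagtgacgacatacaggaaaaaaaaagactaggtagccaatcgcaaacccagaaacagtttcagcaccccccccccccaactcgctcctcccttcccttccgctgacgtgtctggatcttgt
Cdc6: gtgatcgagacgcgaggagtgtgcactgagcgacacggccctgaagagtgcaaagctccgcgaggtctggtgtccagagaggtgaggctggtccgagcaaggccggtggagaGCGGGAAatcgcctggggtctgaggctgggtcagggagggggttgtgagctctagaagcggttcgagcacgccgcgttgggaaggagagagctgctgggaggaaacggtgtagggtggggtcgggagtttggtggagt

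For the helicase ring, stretches of 30 bases around the longer form (capitals) are shown for the 4 subunits that hold it, each on the strand of its gene. Mcm3 carries it after the start, Mcm7 on both sides of it, and Mcm5 and Mcm6 upstream of it in overlapping pairs. The stretches are Mcm3 at chr1:20820275-20820304 (minus strand), Mcm5 at chr8:75109345-75109374 (plus strand), Mcm6 at chr1:128359797-128359826 (minus strand) and Mcm7 at chr5:138172030-138172059 (minus strand). The windows of Mcm2 held no E2F letters.
Mcm3: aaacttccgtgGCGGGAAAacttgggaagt
Mcm5: gcgccaagaacTTTCGCGCcaaaacgtcca
Mcm6: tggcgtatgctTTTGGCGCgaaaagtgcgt
Mcm7: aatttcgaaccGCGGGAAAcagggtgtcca

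The second comparison asks how these genes differed between metastatic lungs with DC101 and with IgG. According to the study, the mice analysed were picked for similar metastatic load by bioluminescence, so they are not an unselected sample of treated mice. No gene on the array was called in DC101 over metastatic IgG lungs by limma (0.0% of 18193 genes, 1209 at an unadjusted p under 0.05), and so none of the 40, whose adjusted p ran between 0.737 and 0.977. The values still leaned one way. The change was below 0 in 37 of the 40 genes, against 54.6% of all genes, with a median of -0.36 against -0.02. At an unadjusted p under 0.05, 4 of the 40 were lower, against 3.94% of all genes, and 1 was higher. Genes of a shared programme move together within an array, so 37 genes are not 37 separate observations.

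The most negative values belonged to genes of several roles. Hells, given above array by array, had a change of -0.83 in DC101 over metastatic IgG lungs, with a 95% interval of -1.45 to -0.22 and an adjusted p of 0.741. Dut had 9.23, 9.70 and 8.73 in DC101 arrays and 10.32, 9.66 and 10.00 in metastatic IgG arrays, which overlapped through the second array of each group. Its change was -0.77 (interval -1.40 to -0.15, adjusted p = 0.741). Cdc6 followed at -0.69 (interval -1.49 to 0.12), Mcm10 at -0.60 (interval -1.22 to 0.03), Pola1 at -0.54 (interval -1.32 to 0.25) and Brca1 at -0.53 (interval -1.01 to -0.04). The 6 genes MCM2 to MCM7 lay close together, between -0.48 and -0.26, each with an interval that reached above 0.

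Arrays of the DC101 and metastatic IgG groups did not overlap in 3 of the 40 genes. Rfc3 had 9.06, 9.12 and 9.05 in DC101 arrays, against 9.49, 9.46 and 9.39 in metastatic IgG arrays. On this probe set the groups are tight and apart, and the change was -0.37 (interval -0.60 to -0.14, adjusted p = 0.737). The other probe set of Rfc3, 1432538_a_at, gave -0.10 ± 0.22 (SE), and its arrays overlapped. Pold1 was the other gene with every DC101 array lower, at 10.13, 10.16 and 9.72 against 10.51, 10.16 and 10.28 in metastatic IgG arrays, where the gap is smaller than the second decimal. All arrays lower was seen in 6.95% of all genes, and all arrays higher in 5.4%, so neither was more common among the 40 genes than over all genes. Orc1 was the gene with every DC101 array higher, at 8.58, 7.90 and 8.07 against 7.61, 7.26 and 7.22 in metastatic IgG arrays. Its change of 0.82 (interval 0.35 to 1.28, adjusted p = 0.737) turned to -0.55 on its other probe set.

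The 5 genes with the largest increases over healthy lungs in the metastatic IgG group were Rrm2, Uhrf1, Brca1, Cdc6 and Tk1. Rrm2 changed by -0.43 in DC101 over metastatic IgG lungs (interval -1.43 to 0.58), Tk1 by -0.40 (interval -1.16 to 0.37) and Uhrf1 by -0.21 (interval -0.73 to 0.31). These intervals, and that of Cdc6 given above, hold 0 as well as values below -0.70, while the interval of Brca1 lies below 0, with an adjusted p of 0.741. The other probe sets of Brca1, all dimmer, changed by -0.16, 0.16 and -0.05 and were not called. Prim2 (-0.04), Gins2 (0.09) and Cdc45 (0.22) lay nearest or above 0.

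**Figure D3:**
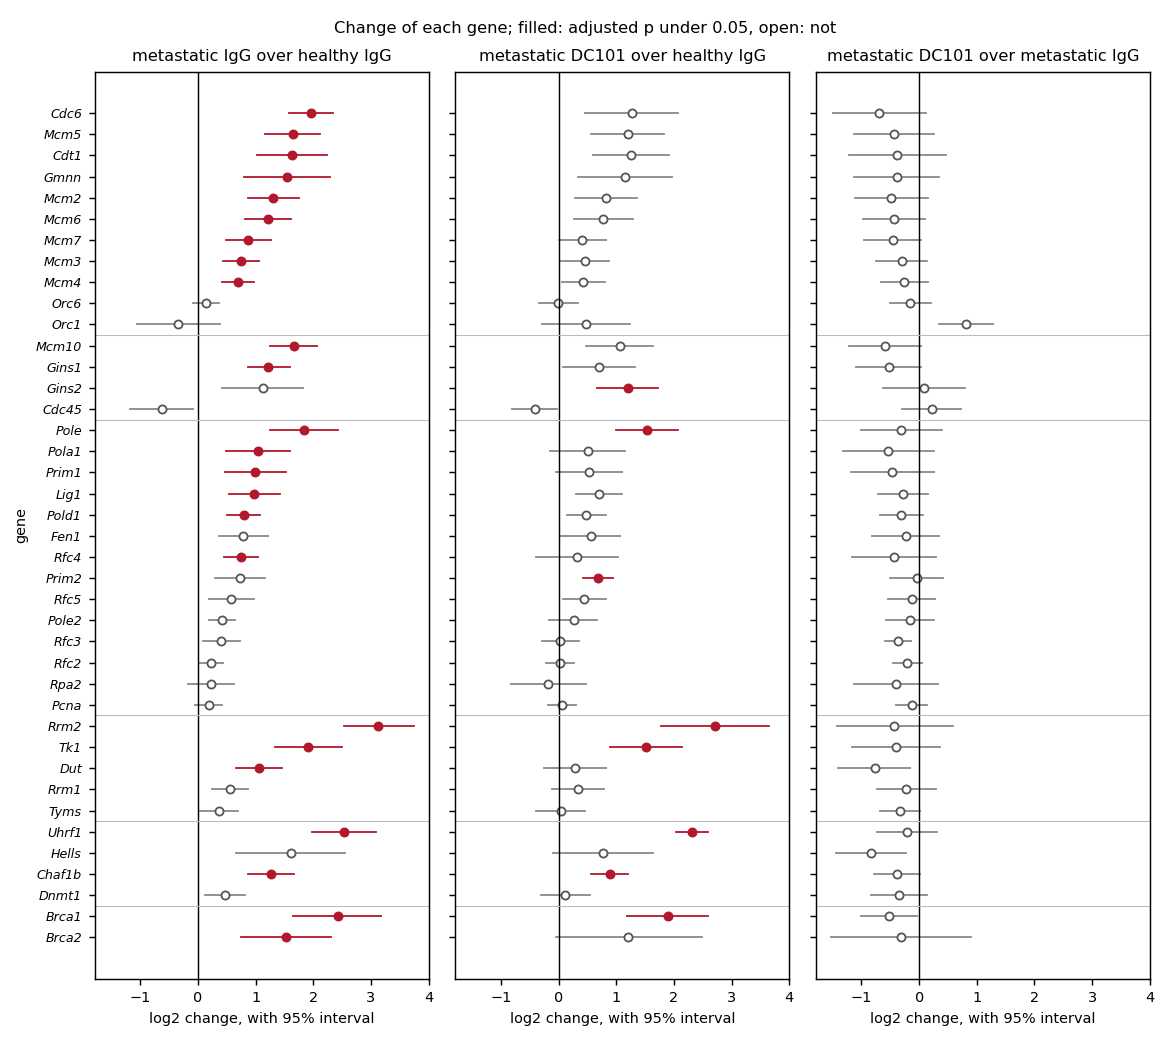
Log2 change of each gene with its 95% interval in the 3 comparisons (filled red: adjusted p under 0.05, open: not), genes grouped by role. Red points fill the left panel (24 genes), 8 stand in the middle panel and none in the right panel, where 37 of 40 points lie left of 0.

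The spread within the metastatic groups was shared by nearly all genes. Metastatic IgG array 1 was the highest of its group in 35 of the 40 genes, DC101 array 2 was the highest of its group in 35, and DC101 array 3 was the lowest in 32. The healthy arrays showed no such order, each being the highest in 10 to 16 genes. Taken as the median difference of the 40 genes from the healthy mean, the DC101 arrays stood at 0.60, 0.94 and 0.27, the metastatic IgG arrays at 1.28, 0.70 and 0.80, and the healthy arrays at -0.02, -0.02 and 0.00. DC101 array 2 was thus above metastatic IgG arrays 2 and 3. Without DC101 array 3 the median change of the 40 genes in DC101 over metastatic IgG lungs was -0.16, without metastatic IgG array 1 it was -0.20, and without DC101 array 2 it was -0.50. No gene of the 40 was called in any of the 6 fits that leave out an array.

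The mitosis genes listed for comparison, most of which act after replication, were also lowest in DC101 array 3 and highest in metastatic IgG array 1 of their groups. Their median difference from the healthy mean was 2.86, 2.84 and 1.92 in DC101 arrays and 3.43, 2.5 and 2.79 in metastatic IgG arrays. Mki67, the gene of the proliferation marker Ki-67, had 12.13, 12.25 and 11.04 in DC101 arrays, 12.73, 11.85 and 12.03 in metastatic IgG arrays and 8.01, 8.63 and 8.68 in healthy arrays. DC101 array 3 was low, as for the replication genes. Of the 26 mitosis genes measured, 25 were called higher in metastatic IgG over healthy lungs, with a median of 2.94, and in DC101 over metastatic IgG lungs none was called or had an unadjusted p under 0.05, with a median of -0.38.

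**Figure D4:**
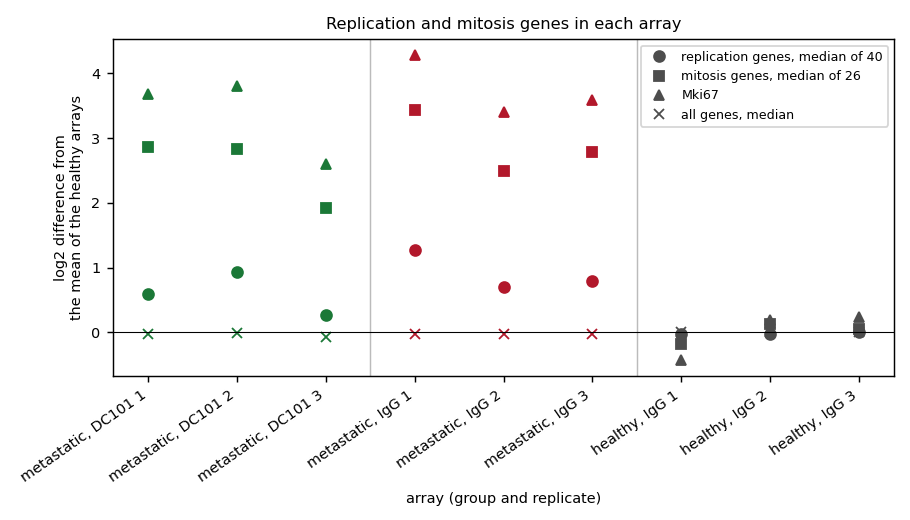
Log2 difference from the mean of the healthy arrays in each array (columns: DC101, metastatic IgG, healthy IgG) for the median of the 40 replication genes (circles), the median of 26 mitosis genes (squares), Mki67 (triangles) and the median of all genes (crosses). The replication median is 0.27 to 0.94 with DC101 and 0.70 to 1.28 in metastatic IgG lungs, and all genes stay near 0.

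The third comparison sets metastatic lungs with DC101 against healthy lungs. It shares its arrays with the other comparisons, so its values are not separate evidence. The replication genes were higher with DC101 than in healthy lungs in 37 of 40 cases, with a median of 0.54, and 8 were called higher and 0 lower (1 lower at an unadjusted p under 0.05), against 1.58% of all genes called higher. In 20 genes every DC101 array was above every healthy array, against 9.44% of all genes. The called genes were Rrm2 (2.71 ± 0.40, SE), Uhrf1 (2.32 ± 0.12), Brca1 (1.89 ± 0.30), Pole (1.53 ± 0.23), Tk1 (1.51 ± 0.27), Gins2 (1.20 ± 0.23), Chaf1b (0.89 ± 0.13) and Prim2 (0.68 ± 0.11), with adjusted p of 0.000658 to 0.0432. Gins2 had 9.72, 10.06 and 9.32 in DC101 arrays, 10.28, 9.24 and 9.33 in metastatic IgG arrays and 8.19, 8.83 and 8.47 in healthy arrays. Prim2 had 9.87, 10.04 and 9.77 in DC101 arrays, 10.34, 9.59 and 9.89 in metastatic IgG arrays and 9.25, 9.14 and 9.26 in healthy arrays. In both genes metastatic IgG array 1 was the highest of all 9 and the DC101 arrays were the more even group. Gins2 and Prim2 were called here and not in metastatic IgG over healthy lungs, and their changes differed by less than 1 SE between the comparisons. For Prim2 the pattern of calls depended on the probe set. In the limma fit over all named probe sets, 1418035_a_at changed by 0.38 here and was not called (adjusted p = 0.327). It was called in metastatic IgG over healthy lungs (0.51, adjusted p = 0.0411). The probe set 1445474_at was called in neither, at 0.29 here and 0.24 there.

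None of MCM2 to MCM7 was called with DC101 over healthy lungs, with changes of 0.41 to 1.20 and limma adjusted p of 0.0759 to 0.297. At an unadjusted p under 0.05, 5 of the 6 were higher, against 1286 of all 18193 genes. In metastatic IgG over healthy lungs MCM2 to MCM7 had changed by 0.69 to 1.64. Losing the call does not show a difference between the groups, and the direct comparison of DC101 with metastatic IgG called none of them. The call of Uhrf1 held whichever array was left out, and on the probe set used its SD over the DC101 arrays was 0.02. Its second probe set was less even, at 9.78, 10.18 and 9.22 in these arrays. Of the other 7, Brca1 was called in 3 of the 6 fits, being lost without DC101 array 1 or 2 or healthy array 1, at an adjusted p of at most 0.0881. Rrm2, Pole, Tk1, Gins2, Chaf1b and Prim2 were called in 1 of the 6, the fit without DC101 array 3, with adjusted p of up to 0.147 otherwise. In that fit 13 of the 40 genes were called. Without DC101 array 1, DC101 array 2 or healthy array 1 only 1 was called, and without healthy array 2 or 3 only 2.

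Other genes of the same pathways were read from the same fit. Of 39 other genes of origins and forks, 6 were called higher and 1 lower in metastatic IgG over healthy lungs, with a median change of 0.13. Over all genes 3.93% were called higher and 2.6% lower. The 6 included Clspn (2.23), the checkpoint adaptor claspin, Pclaf (2.11), a partner of PCNA, Dscc1 (1.90), of an alternative clamp loader, and Atad5 (1.58), which unloads the clamp. Of 24 other nucleotide synthesis genes 3 were higher, the salvage kinase Dck (1.38), the CTP synthase Ctps (1.01) and Cad (0.51), which starts pyrimidine synthesis. Of 26 other chromatin genes 6 were higher, led by the histone chaperone Asf1b (2.13) and by Mms22l (1.74), which protects forks, and including Cdca7 (0.92), a partner of HELLS, and Ezh2 (0.83), the methyltransferase of histone H3. Of 24 other recombination and fork protection genes 5 were higher, among them the cohesin acetyltransferase Esco2 (2.17), the checkpoint kinase Chek1 (1.29), Rad54b (1.16) and Msh6 (0.75). By limma none of these 113 genes was called in DC101 over metastatic IgG lungs, where 8 were lower and 1 higher at an unadjusted p under 0.05, against 3.94% and 2.71% of all genes. Atad5, Ctps and Esco2 were called higher in DC101 over healthy lungs, against 1.58% of all genes. In metastatic IgG over healthy lungs Cad lost its call whichever array was left out, with limma adjusted p of 0.0543 to 0.0829. Clspn, Cdca7, Chek1, Rad54b and Esco2 lost theirs in some of these fits. So did Atad5, Ctps and Esco2 in DC101 over healthy lungs.

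Probe sets of a gene did not always speak with 1 voice. The 40 genes had 90 named probe sets, and 31 genes had several. In a fit over all 34945 named probe sets, 37 of the 90 were called higher and 0 lower in metastatic IgG over healthy lungs, and 84 of the 90 changes were above 0. In 6 of the 31 genes (Cdc45, Chaf1b, Orc1, Pole2, Rfc2 and Rrm1) probe sets differed in sign. In DC101 over metastatic IgG lungs 79 of the 90 changes were below 0 and none was called. For 15 genes the probe set used is of a type (_s, _x or _a) that matches several transcripts, among them Mcm3, Mcm4, Mcm6, Mcm7, Cdc6, Cdt1 and Mcm10.

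**Figure D5:**
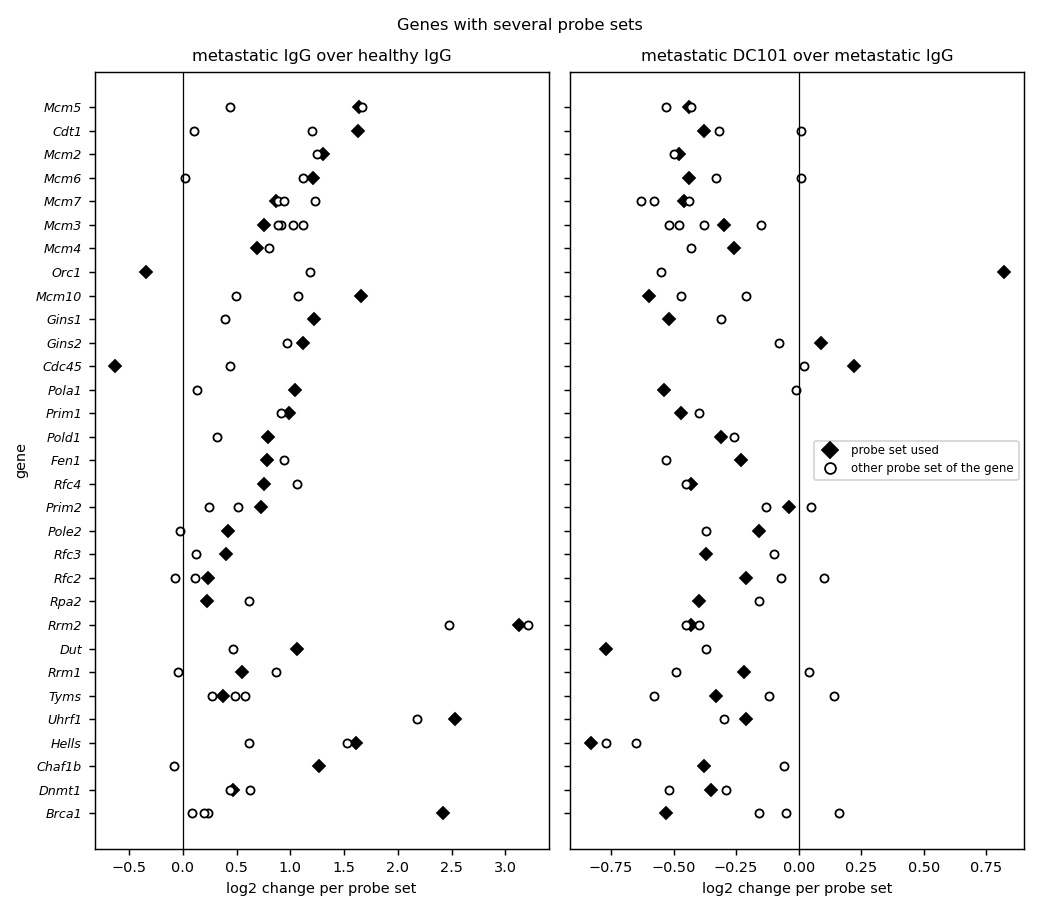
Log2 change of every named probe set of the 31 genes with several (diamond: the probe set used, circle: the others), in metastatic IgG over healthy IgG (left) and DC101 over metastatic IgG (right). Rrm2, Uhrf1, Mcm3 and Mcm7 have all their probe sets well right of 0 on the left, while Orc1 and Brca1 split.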

How the data were processed

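RNA of ECs was hybridised to Affymetrix mouse genome arrays, 1 array per sample. The values deposited by the authors are log2 expression values, normalized by robust multiarray averaging in the program Chipster per the study's methods, which makes the arrays' distributions equal and hides a change of total RNA per cell. The log base is not stated in the table and follows from the method. Of 45101 probe sets, 34945 had 1 gene symbol in the platform annotation, 932 had several and 9160 were unnamed. Of several probe sets of a gene, the one with the highest mean of the 9 arrays stood for it, and dim genes were kept. Each comparison had a fit of its own on 6 arrays (limma 3.58.1, functions lmFit and eBayes, R 4.3.3), with two-sided p-values adjusted over all genes, and the script was tested on simulated data. Standard errors and intervals are the moderated ones, and SDs are over 3 arrays.

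The genes and lists were chosen with earlier results of these data known. All 41 genes were to be named, with at most 4 called genes of each other list, Mki67 and the promoters of up to 6 genes with the largest called increase. Some genes of those lists are not analysed here. Alternatives covered the fit, the probe set, dim genes, centring, array weights and leaving out each array.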

Additional observations from a re-analysis of the deposited data

How the results depend on the processing

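In metastatic IgG over healthy lungs 24 of the 40 genes were called, and 16 to 29 under 8 other settings. Leaving out 1 array gave 13 to 21 called genes, lowest without healthy array 1. Calls over all genes numbered 1188, and 556 to 759 with 1 array left out. In DC101 over healthy lungs 8 genes were called. There were 4 with the mean of all probe sets of a gene, and 1 to 13 with 1 array left out. Over all genes 440 were called there, 662 with all 9 arrays in 1 fit and 110 to 361 with 1 array left out. In DC101 over metastatic IgG lungs no setting called any gene.

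Equal replicate numbers did not pair the arrays: the correlations of same-numbered arrays' deviations lay between -0.0543 and 0.0845. With the replicate number as a block, 22 of the 40 genes and 689 of all genes were called in metastatic IgG over healthy lungs, and 5 and 247 in DC101 over healthy lungs.

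Directions turned for some genes that were not called in the comparison concerned. In metastatic IgG over healthy lungs Orc1 was 0.42 with the mean of its probe sets and -0.56 to 0.03 with 1 array left out, and Rfc2 was -0.07 without probe sets of the types that match several transcripts. In DC101 over metastatic IgG lungs, the ranges with 1 array left out were -0.70 to 0.32 for Brca2, -0.01 to 0.41 for Cdc45, -0.39 to 0.01 for Fen1, -0.10 to 0.42 for Gins2, -0.22 to 0.16 for Prim2, -0.69 to 0.08 for Rrm2 and -0.45 to 0.03 for Uhrf1. Prim2 was 0.01 with arrays centred on their median. In DC101 over healthy lungs these ranges were -0.03 to 0.31 for Dnmt1, -0.09 to 0.14 for Orc6, -0.04 to 0.06 for Rfc2, -0.05 to 0.18 for Rfc3, -0.06 to 0.58 for Rfc4, -0.47 to 0.14 for Rpa2 and -0.09 to 0.19 for Tyms. With the mean of all probe sets Cdc45 was 0.02, Pole2 -0.07 and Rpa2 0.13 there. Without the types that match several transcripts Rfc2 was -0.15. With array weights Orc6 was 0.05 and Tyms -0.02, and with arrays centred Orc6 was 0.01. The cause of these turns was not tested, beyond the smaller number of arrays or the other probe set that each setting uses. Fitting all named probe sets at once, chosen after seeing the data, left 21 of the 24 genes called in metastatic IgG over healthy lungs and 6 of the 8 in DC101 over healthy lungs. With 3 arrays a group, small changes near the floor or the top of the scale cannot be resolved.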
